A study of Homo sapiens with 4 samples.

Results

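Protocadherin genes were examined in RNA-seq libraries of MCF12A cells, a non-tumorigenic human mammary epithelial line. They were taken as all rows of the expression table whose symbol begins with PCDH, low values included, which gave 10 of 16811 genes. Of these, 8 belong to the gene clusters on the long arm of chromosome 5 (5q31), with 3 alpha, 1 beta and 4 gamma genes, and 2 are non-clustered. The edited group held 2 libraries of cells in which CRISPR/Cas9 had been used to remove the p2 promoter of *C1orf132* (*MIR29B2CHG*), the host gene of miR-29b2 and miR-29c. The wild-type group held 2 libraries of unedited MCF12A cells, and both groups were sequenced from poly(A)-selected RNA as single-end reads. The edited cells had been grown from single sorted cells, so both edited libraries may come from 1 clone, and a difference between that clone and the wild-type population cannot be told apart from the deletion. The level of *C1orf132* was not analysed here, and the labels could therefore not be checked by the edited gene.

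Protocadherins are cadherin-type cell surface proteins that bind like molecules on neighbouring cells, and they are best known for giving neurons individual surface identities. In the clusters, each variable exon has a promoter of its own. The alpha and the gamma variable exons are each spliced to a common set of constant exons, so that members of a cluster share their intracellular end, whereas each beta gene is a single exon. Which promoters a cell uses is known to depend on DNA methylation and on CTCF and cohesin, which bind a conserved sequence element with the core CGCT a short way upstream of most of these starts. In epithelia, *PCDH1* is a non-clustered adhesion protein of the cell border.

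The sequences around a CGCT near the start are shown first, because each of the 8 clustered transcripts starts from a promoter of its own. CGCT was searched on the strand of the transcript from 100 to 41 bases before the annotated start. For the 8 clustered genes the first match is given in capitals with 18 bases on each side, written 5′ to 3′. This match is called the core below, though it may not be the conserved element in every gene. All 10 genes were matched to RefSeq promoters of 300 bases on GRCh38.p14, 9 by symbol and *PCDH24* under its present symbol *CDHR2*.
PCDHA11: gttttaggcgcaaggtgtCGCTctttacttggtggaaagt
PCDHA12: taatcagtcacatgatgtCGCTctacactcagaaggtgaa
PCDHAC2: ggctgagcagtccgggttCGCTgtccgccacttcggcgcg
PCDHB2: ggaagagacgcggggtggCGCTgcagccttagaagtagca
PCDHGB6: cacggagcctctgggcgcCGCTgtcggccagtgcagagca
PCDHGB7: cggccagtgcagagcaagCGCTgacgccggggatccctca
PCDHGA11: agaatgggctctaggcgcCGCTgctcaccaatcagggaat
PCDHGC3: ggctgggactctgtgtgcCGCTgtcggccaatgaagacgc
All 8 windows lie on the plus strand, at chr5:140868881-140868920 for *PCDHA11*, chr5:140875242-140875281 for *PCDHA12*, chr5:140966363-140966402 for *PCDHAC2*, chr5:141094542-141094581 for *PCDHB2*, chr5:141407922-141407961 for *PCDHGB6*, chr5:141417605-141417644 for *PCDHGB7*, chr5:141420970-141421009 for *PCDHGA11* and chr5:141475878-141475917 for *PCDHGC3*. The core began 48 to 95 bases before the start, and 55 bases before it in *PCDHB2*. In *PCDHA11* and *PCDHA12* the core followed TGT, in *PCDHB2* it followed GTGG, and in *PCDHGB6* and *PCDHGC3* it was preceded by GC and followed by GT. *PCDHAC2* lacked the TGT of the other alpha windows and had GT after the core, and *PCDHGB7* and *PCDHGA11* lacked the GT of the other gamma windows. The stretch cggccagtgcagagca followed the core in *PCDHGB6* and preceded it in *PCDHGB7*, so the windows of these genes are not aligned with each other. *PCDH1* held no CGCT on the strand of its transcript in the 300 bases. *CDHR2* held 1, at 89 bases before the start, so a match in the searched stretch was not limited to clustered genes.

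The core is short and was present on either strand in 69.4% of the 27305 RefSeq promoters, taken 1 per gene, and in 46 of the 47 clustered protocadherin promoters. Within the 100 to 41 bases before the start and on the strand of the transcript, it was found in 36 of the 47 (76.6%) and in 18.5% of all promoters. Longer words that contain the core were chosen after these sequences had been seen and were searched on both strands. GTGGCGCT was found in 13 of 14 beta promoters and in 0 alpha or gamma promoters, against 1.18% of all promoters. ATGTCGCT was found in 9 of 13 alpha promoters and in 0 of the other clustered ones, against 0.245% of all promoters. GCCGCTGT was found in 11 of 20 gamma promoters and in 0 of the other clustered ones, against 1.6% of all promoters. Among the genes of the table, *PCDHB2* held the first word, *PCDHA12* the second, and *PCDHGB6* and *PCDHGC3* the third, while the other 6 genes held none of them. These matches describe letters in a window and no binding was measured.

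The whole promoter of *PCDHB2*, the gene with the largest difference among the 10, lies at chr5:141094365-141094664 on the plus strand, with the core in capitals.
PCDHB2 promoter: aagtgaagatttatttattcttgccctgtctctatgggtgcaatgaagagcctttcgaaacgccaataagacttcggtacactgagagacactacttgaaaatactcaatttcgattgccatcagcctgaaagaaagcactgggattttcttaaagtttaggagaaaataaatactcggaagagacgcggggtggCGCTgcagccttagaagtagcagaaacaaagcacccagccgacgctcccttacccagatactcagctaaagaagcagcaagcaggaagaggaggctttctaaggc
It held 10 CpG pairs and was 45.3% G and C. CGCT occurred 2 times on this strand, and only the first, inside the searched stretch, is in capitals. The GC content of the 10 promoters ran from 36.0% in *PCDHA12* to 63.0% in *PCDHAC2*, and their CpG pairs from 6 in *PCDH1* to 18 in *PCDHGC3*.

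The normalization of the values is not given in the sources used here. From their low values they appear to be divided by transcript length and by a factor of each library, and comparisons of levels between genes rest on this inference. A single read on a transcript of 1 kb was worth about 0.116 and 0.104 in edited and 0.125 and 0.116 in unedited replicates 1 and 2, so that the libraries were of similar depth (0.93 to 1.12 times edited replicate 1). Read numbers derived from this step are approximate and cover counting error only. RefSeq lists 53 clustered protein-coding genes (15 alpha, 16 beta and 22 gamma) and 13 other PCDH genes. Every row of the table exceeded 1 in at least 2 libraries, which is called the limit on rows from here on. Protocadherin genes without a row were not analysed here.

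Most protocadherin levels were low. Means over the 4 libraries ran from 0.848 in *PCDHGB6* to 39.3 in *PCDH1*, and only *PCDHGC3* (15.9) and *PCDH1* lay above 14.4, the median of all genes. Among the clustered genes *PCDHGC3* was the most abundant, followed by *PCDHGB7* (4.61) and *PCDHB2* (4.44). These means pool both groups, and the order of *PCDHGB7* and *PCDHB2* differed between them. In wild-type replicates 1 and 2 *PCDHGB7* was higher (4.33 and 3.72 against 1.04 and 1.04). In edited replicates 1 and 2 *PCDHB2* was higher (5.99 and 9.68 against 2.20 and 8.19). The alpha genes lay between 1.08 and 2.67, and *PCDHA11*, *PCDHA12* and *PCDHGB6* were within the lowest 7.79% of genes.

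**Figure D1:**
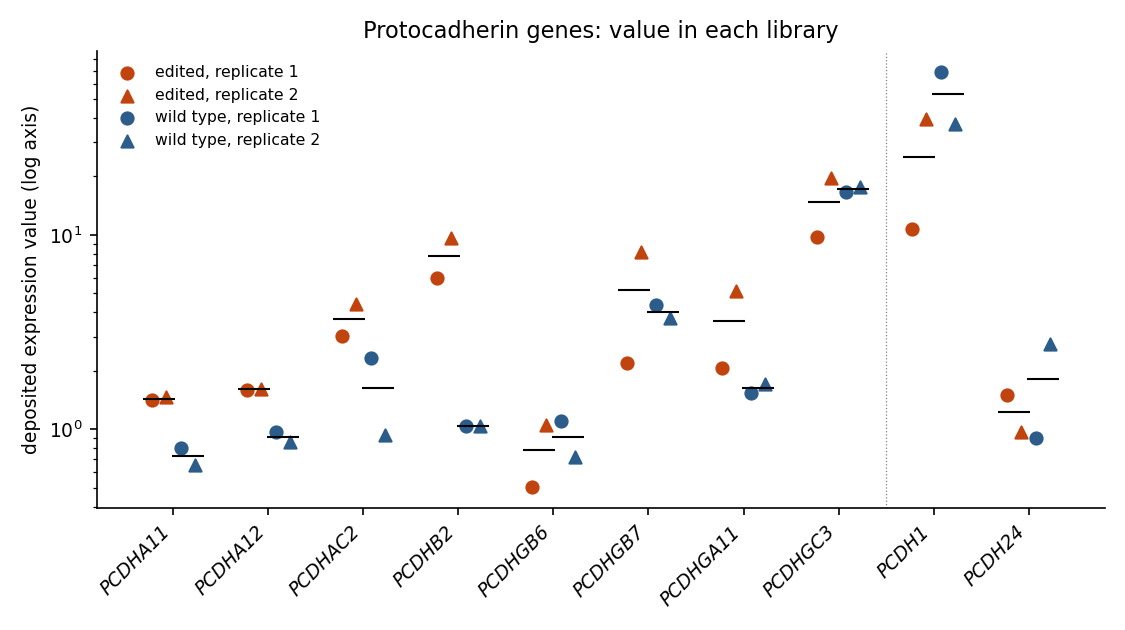
Deposited expression value of each protocadherin gene (log axis) in the 2 edited (orange) and 2 wild-type (blue) libraries, with circles for replicate 1, triangles for replicate 2 and black bars for group means. The 8 clustered genes stand left of the dotted line; *PCDHB2* is the gene whose groups lie farthest apart, and *PCDHGB7* and *PCDH1* spread widest within the edited group.

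The main comparison asked whether protocadherin expression differed between edited and wild-type cells. *PCDHB2*, a member of the beta cluster, rose past the threshold, 7.55-fold in the group means. No protocadherin gene passed it in the lower direction. *PCDHAC2* and *PCDHGA11* had higher values in both edited libraries than in either wild-type library without passing, as did *PCDHA11* and *PCDHA12*, for which the make-up of the table fixed this order. The other gamma genes, *PCDH1* and *PCDH24* overlapped between the groups. Tests were made with limma on log2(value + 1) over all 16811 genes, with Benjamini-Hochberg adjustment and a call at an adjusted p under 0.05. The libraries are described as biological replicates, and nothing says whether they came from separate cultures, so p-values measure only the spread between these libraries, which may be technical.

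By this rule 1 of the 8 clustered genes was called higher and 0 lower, against 1.33% of all genes called higher (224) and 3.4% called lower (571). Of the 2 non-clustered genes, limma called 0 in either direction, and 0 had an unadjusted p under 0.05. Both edited libraries lay above both wild-type libraries in 5 of the 8 clustered genes, where 31.4% of all genes did so, as did 23.3% of the 8558 genes whose mean lay within the range of the clustered genes. For 2 of these 5, *PCDHA11* and *PCDHA12*, this order was fixed by the limit on rows, since they exceeded 1 in both edited libraries and in neither wild-type library. Of the other 6 clustered genes, 3 had both edited libraries above (*PCDHAC2*, *PCDHB2* and *PCDHGA11*), against 31.5% of the 15774 rows of the table whose order the limit did not fix. Both edited libraries lay below both wild-type libraries in 0 of the 10 genes, against 30.2% of all genes. The median log2 fold change of the clustered genes was 0.47, with a range from -0.29 to 2.08, and 0.42 without *PCDHA11* and *PCDHA12*. The median of all genes was 0.01, and that of the genes in the same range of means was -0.10. The 2 non-clustered genes had a median of -0.76, which is 1.23 below that of the clustered genes. Leaving out edited replicate 1 or 2 changed the non-clustered median to -0.40 or -1.12. These medians are descriptions of 8 and 2 genes and were not tested.

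**Figure D2:**
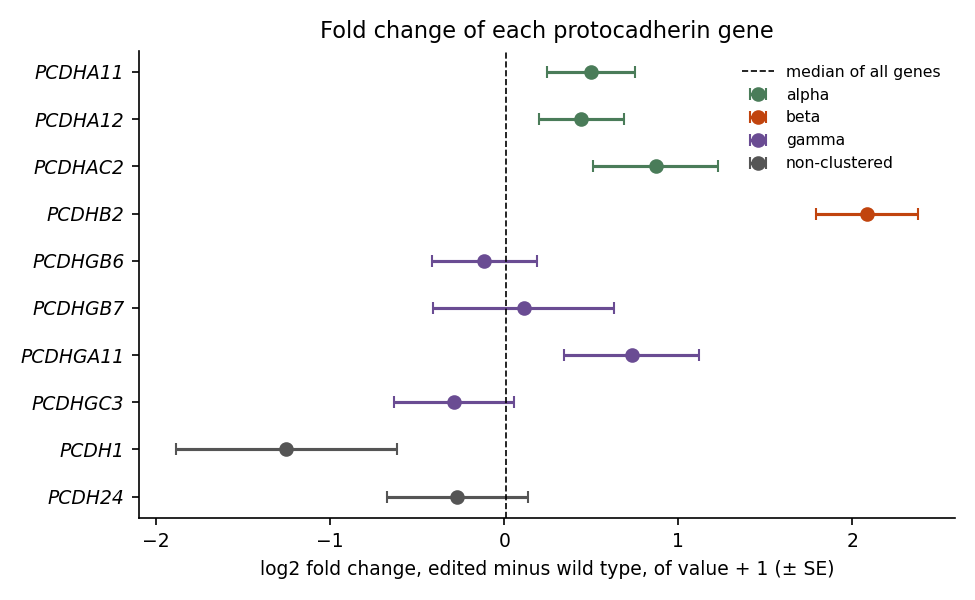
Log2 fold change (edited minus wild type, of value + 1) of each protocadherin gene, with its standard error from limma (n = 2 per group) and colours for the alpha, beta, gamma and non-clustered genes. *PCDHB2* lies at 2.08, the alpha genes lie between 0.44 and 0.87, and the gamma genes fall on both sides of the median of all genes (dashed line).

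*PCDHB2* (chr5:141094615-141098703) was the single beta gene of the table. Its values were 5.99 and 9.68 in edited replicates 1 and 2 and 1.04 in each of the wild-type replicates. The wild-type libraries thus held the same low level, and both edited libraries stood well above it, at 5.77 and 9.33 times the wild-type mean. Approximate read numbers behind these values were 211 and 381 in edited cells, against 34 and 37 in wild-type cells. *PCDHB2* had a log2 fold change of 2.08 ± 0.29 (SE, n = 2 per group), with an adjusted p of 0.0334 from limma. In all, 336 genes of the table had an adjusted p as low or lower.

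The call on *PCDHB2* rested on all 4 libraries. Leaving out any 1 of them ended it, with log2 fold changes of 1.78 to 2.39 and adjusted p-values from limma of 0.0833 to 0.223. Over all genes, limma then called 52 without edited replicate 1, 248 without edited replicate 2, and 0 without wild-type replicate 1 or 2, where 4169 and 2796 genes still had an unadjusted p under 0.05. With a replicate block, the adjusted p of *PCDHB2* was 0.0688 and 0 protocadherin genes were called. Of the 75-base stretches of its transcript, 15.4% also occurred in other genes of its cluster, so that part of its reads could not be assigned by sequence alone.

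The alpha genes were low in both groups. *PCDHA11* and *PCDHA12* had a row only through their edited libraries, so the order of their groups is not a result. *PCDHA11* (chr5:140868957-141012347) measured 1.41 and 1.47 in edited and 0.797 and 0.657 in wild-type replicates 1 and 2, a log2 fold change of 0.50 ± 0.25 (SE). *PCDHA12* (chr5:140875308-141012347) measured 1.60 and 1.61 against 0.971 and 0.861, a log2 fold change of 0.44 ± 0.25 (SE). In both genes the edited libraries were within 5% of each other.

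*PCDHAC2* (chr5:140966476-141012347), the last variable exon of the alpha cluster and of a separate C type, measured 3.004 and 4.39 in edited and 2.33 and 0.939 in wild-type replicates 1 and 2. The groups did not overlap, although the wild-type libraries differed from each other more than edited replicate 1 did from wild-type replicate 1. Its log2 fold change was 0.87 ± 0.36 (SE), and leaving out wild-type replicate 2 or 1 changed it to 0.48 or 1.26. The adjusted p-values of the alpha genes from limma were 0.252 for *PCDHA11*, 0.290 for *PCDHA12* and 0.183 for *PCDHAC2*, and none passed.

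Of the 75-base stretches of the alpha transcripts, 49.5% to 54.3% are shared within the cluster through the constant exons. The sum over the alpha genes was therefore also compared. It covers 3 of the 15 alpha genes in RefSeq. Shared reads could also be assigned to alpha genes without a row, so the sum may still depend on their split. The sum was 6.01 and 7.47 in edited cells (replicates 1 and 2) and 4.10 and 2.46 in wild-type cells, a ratio of group means of 2.06. Both edited sums exceeded both wild-type sums, but the limit on rows had fixed this direction for 2 of the 3 genes summed, so no test is given.

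The gamma genes differed more between the edited libraries than between the groups. *PCDHGC3* (chr5:141475966-141512975), the most abundant clustered gene, measured 9.74 and 19.7 in edited and 16.7 and 17.7 in wild-type replicates 1 and 2. *PCDHGB7* (chr5:141417677-141512975) measured 2.20 and 8.19 against 4.33 and 3.72. In both genes edited replicate 1 was the lowest library and edited replicate 2 the highest. *PCDHGB6* (chr5:141408021-141512975), the lowest protocadherin gene of the table, measured 0.504 and 1.06 against 1.11 and 0.723, again with overlapping groups.

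Of the 4 gamma genes only *PCDHGA11* (chr5:141421051-141512975) had both edited libraries above both wild-type libraries. It measured 2.08 and 5.16 in edited and 1.54 and 1.71 in wild-type replicates 1 and 2, a log2 fold change of 0.73 ± 0.39 (SE) with an adjusted p of 0.270 from limma. Without edited replicate 2 the log2 fold change was 0.23, and without edited replicate 1 it was 1.23. The log2 fold changes of *PCDHGC3*, *PCDHGB7* and *PCDHGB6* were -0.29 ± 0.34, 0.11 ± 0.52 and -0.12 ± 0.30 (SE), with adjusted p-values from limma of 0.625, 0.911 and 0.837. Each of these 3 changed sign when 1 of the libraries was left out, so no direction is given for them.

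All 4 gamma genes were at least 2.02 times as high in edited replicate 2 as in edited replicate 1, with the widest ratio, 3.73, in *PCDHGB7*. The alpha genes differed by 1.00 to 1.46 times between the same libraries. Summed over the gamma genes, the values were 14.5 and 34.1 in edited cells and 23.6 and 23.9 in wild-type cells, so that the wild-type sums lay between the edited ones. The ratio of group means was 1.02 with an exact two-sided permutation p of 1.0. Of the 75-base stretches of the gamma transcripts, 44.7% to 48.2% are shared within the cluster, and the split of reads between its members is correspondingly uncertain. The gamma sum covers 4 of the 22 gamma genes in RefSeq and may depend on this split too.

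In the make-up of the clustered signal, the shares of some genes did not overlap between the groups, whereas the sums overlapped. Whether the make-up differed more than the sum was not tested. The 8 genes summed to 26.5 and 51.2 in edited and 28.8 and 27.4 in wild-type replicates 1 and 2, a ratio of means of 1.39 (exact two-sided permutation p = 1.0). Leaving out edited replicate 1 or 2 changed this ratio to 1.83 or 0.945. *PCDHB2* made up 22.6% and 18.9% of the sum in the edited libraries and 3.60% and 3.79% in the wild-type libraries. *PCDHGC3* made up 36.7% and 38.4% against 57.9% and 64.7%. For both genes the groups did not overlap in share, with an exact two-sided permutation p of 0.33. This is the smallest that 2 against 2 libraries can give. It does not mark out these genes, since the shares of *PCDHA11*, *PCDHAC2*, *PCDHGA11* and *PCDHGB6* did not overlap either, with the same p. A larger share of *PCDHB2* also lowers the summed share of the other genes. The level of *PCDHGC3* overlapped between the groups (9.74 and 19.7 in edited, 16.7 and 17.7 in wild-type libraries). The sum also contains *PCDHA11* and *PCDHA12*, whose group order the limit on rows had fixed.

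**Figure D3:**
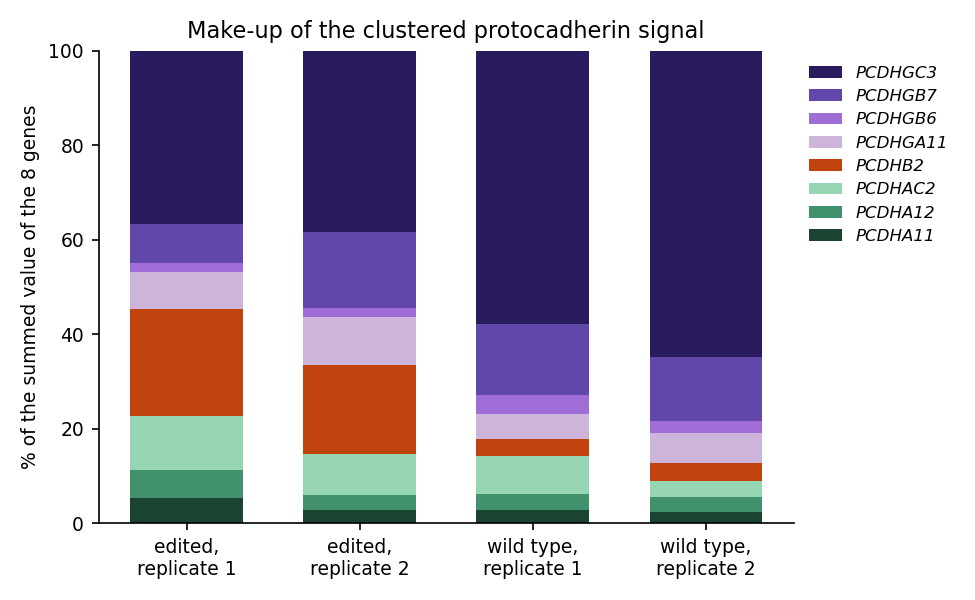
Share (%) of each of the 8 clustered genes in their summed value in each library. *PCDHB2* (orange) takes 18.9% to 22.6% in the edited and 3.60% to 3.79% in the wild-type libraries, and *PCDHGC3* takes the largest share in all 4.

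The ratio of 2 genes within a library does not depend on how the libraries were scaled. *PCDHB2* was at 0.615 and 0.492 times the level of *PCDHGC3* in the edited libraries and at 0.0623 and 0.0586 times in the wild-type libraries. The 2 groups of ratios did not overlap. Over *PCDHAC2*, the ratios of *PCDHB2* were 1.99 and 2.20 in edited and 0.444 and 1.11 in wild-type replicates 1 and 2. These did not overlap either but lay closer together, so the size of the difference depended on the gene it was set against. Within the gamma cluster, *PCDHGA11* made up 14.3% and 15.2% of the summed value in edited and 6.51% and 7.17% in wild-type cells, although its level differed by 2.49 times between the edited libraries. For each of these comparisons the exact two-sided permutation p was 0.33, the smallest possible.

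The non-clustered genes gave no call. *PCDH1* (chr5:141853090-141878410) lies 340 kb beyond the last clustered gene and was the most abundant protocadherin gene. It measured 10.8 and 39.5 in edited and 69.3 and 37.4 in wild-type replicates 1 and 2. Edited replicate 1 stood apart below the other libraries, while edited replicate 2 and wild-type replicate 2 lay close together. Its log2 fold change was -1.25 ± 0.63 (SE) with an adjusted p of 0.254 from limma. Leaving out edited replicate 1 gave -0.36, and leaving out edited replicate 2 gave -2.14. The 4 values of *PCDH1* were in the proportion of the whole numbers 419, 1722, 2506 and 1457 after division by the step of each library, so at least about that many reads lay behind them.

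*PCDH24* (chr5:176542511-176595974) is an older symbol of *CDHR2*, a cadherin of the intestinal and renal brush border that RefSeq no longer names a protocadherin. It lies 35.0 Mb from the clusters. Its values were 1.496 and 0.964 in edited and 0.897 and 2.75 in wild-type replicates 1 and 2, so that wild-type replicate 1 was the lowest and wild-type replicate 2 the highest library. The log2 fold change was -0.27 ± 0.40 (SE), with an adjusted p of 0.701 from limma, and it was 0.22 without wild-type replicate 2.

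Most genes beside the clusters also had higher values in edited than in wild-type cells, and none of them passed the test. Of the genes that are no protocadherins and lie within 2 Mb of the clustered ones, 45 had a row. Their median log2 fold change was 0.46, from -1.35 to 1.97, close to the median of 0.47 of the clustered genes. Of the 45, 37 were above 0, against 50.9% of all genes. In 31 of the 45 (68.9%) both edited libraries lay above both wild-type libraries, against 31.4% of all genes. Without the 2 whose order the limit on rows had fixed, as for *PCDHA11* and *PCDHA12*, it was 29 of 43 (67.4%). Over all rows whose order the limit did not fix, it was 31.5%. By limma 0 of the 45 were called in either direction, with 21 at an unadjusted p under 0.05, where 4.73% of all genes were called and 29.2% had such a p, and none reached the log2 fold change of *PCDHB2*. *TAF7*, a subunit of the general transcription factor TFIID, was the 1 such gene inside the clusters, between *PCDHB2* and the gamma genes, and had a log2 fold change of 0.40 ± 0.17 (SE).

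On both sides of the clusters the medians were positive, 0.51 for the 32 genes before them and 0.40 for the 13 after their start. The 36 genes within 2 Mb of *PCDH24* had a median of 0.51. Over all 582 other genes placed on chromosome 5 the median was 0.26, and 51.0% had both edited libraries above both wild-type libraries. In ratios of group means, which no pseudocount compresses, the median was 1.38 for the 45 neighbours, 1.87 for the 8 clustered genes (*PCDHA11* and *PCDHA12* included) and 1.01 for all genes. The ratio of *PCDHB2* (7.55) was above that of every neighbour, but the next one was close to it: *SPRY4*, an inhibitor of receptor tyrosine kinase signalling named here after its values had been seen, reached 7.09 with a log2 fold change of 1.97 ± 0.61 (SE). The part of this regional difference in the values of the clustered genes was not tested.

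**Figure D4:**
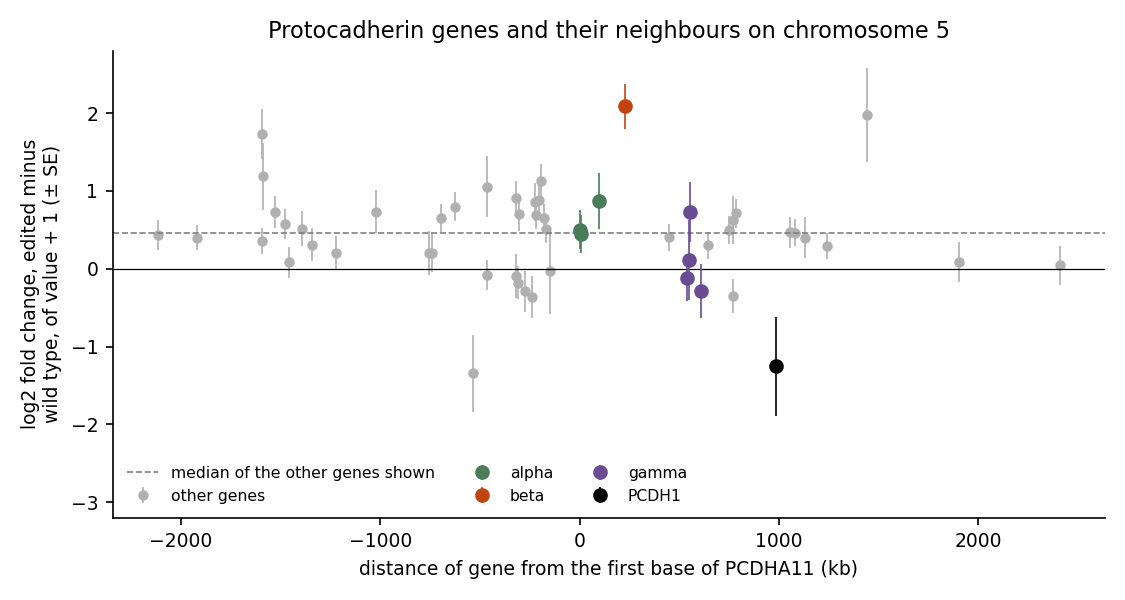
Log2 fold change (edited minus wild type, of value + 1, ± SE from limma) against the distance in kb from the first base of *PCDHA11*, for protocadherin genes (colours) and for 45 other genes within 2 Mb (grey). The grey genes centre on 0.46 (dashed line); *PCDHB2* lies above all of them, *PCDH1* lies below 0, and the alpha genes lie within their range.

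In the lists that follow, counts of calls stand against 4.73% of all genes called in either direction and 29.2% at an unadjusted p under 0.05, and a count of 0 calls in lists of this length is near that background. Genes at such a p that are not among the 3 most abundant of their list were named after their values had been seen. All 11 genes of the CTCF and cohesin list were analysed; limma called 0 of them, 1 had an unadjusted p under 0.05, and their median log2 fold change was 0.12. The cohesin subunits *RAD21*, *SMC1A* and *STAG2*, the most abundant of the list, had log2 fold changes of -0.04 ± 0.18, 0.25 ± 0.23 and -0.43 ± 0.19 (SE). *CTCF* itself, named outside the rule for its role at these promoters, had 0.32 ± 0.19 (SE), and *PDS5A*, a regulator of cohesin and the 1 gene at an unadjusted p under 0.05, had 0.44 ± 0.17 (SE). Of 19 genes of DNA methylation and silencing, 17 were analysed and 0 were called, with 2 at an unadjusted p under 0.05 and a median of -0.05. *TRIM28*, a corepressor, *DNMT1*, the maintenance methyltransferase, and *EHMT1*, a histone methyltransferase, were the most abundant of these, with log2 fold changes of 0.59 ± 0.23, 0.59 ± 0.21 and -0.18 ± 0.16 (SE). *DNMT1* and its partner *UHRF1* (0.93 ± 0.18, SE) were the 2 at an unadjusted p under 0.05.

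In the WAVE complex, which clustered and other protocadherins recruit to drive actin branching, limma called 0 of 9 genes (2 at an unadjusted p under 0.05), with a median of 0.12. Its most abundant genes, *BRK1*, *NCKAP1* and *CYFIP1*, lay between -0.05 and 0.32. The 2 genes at an unadjusted p under 0.05 were *WASF2* and *ABI1*, at -0.87 ± 0.22 and -0.83 ± 0.21 (SE). Of 7 cytoplasmic partners, 0 were called and 0 had an unadjusted p under 0.05. The most abundant were *PPP1CA*, the focal adhesion kinase *PTK2* and *CTNNB1*, at 0.36 ± 0.18, -0.38 ± 0.22 and -0.03 ± 0.18 (SE). Of 8 genes of the proteases that cleave protocadherins, 0 were called and 2 had an unadjusted p under 0.05, with a median of -0.23. *NCSTN* and *APH1A*, subunits of gamma-secretase, and *ADAM10*, the sheddase, lay between -0.24 and -0.05.

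Of 14 other large cadherins, 6 were analysed with *PCDH24* among them. Log2 fold changes of 5 were below 0, with a median over the 6 of -0.82, where 50.9% of all genes were above 0. In 3, both edited libraries lay below both wild-type libraries, against 30.2% of all genes. None was called by limma, and 3 had an unadjusted p under 0.05. The most abundant were *FAT1*, *CELSR1* and *FAT2*, at -0.39 ± 0.28, -1.25 ± 0.36 and -2.94 ± 0.54 (SE), the last with an adjusted p of 0.0502. *CELSR2*, the other gene at an unadjusted p under 0.05 beside *CELSR1* and *FAT2*, was at -1.66 ± 0.38 (SE).

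Cell type markers were compared in the same way. All 10 mammary epithelial markers had a row, and their summed value was 5180 and 6959 in edited and 12310 and 20820 in wild-type replicates 1 and 2. Most of this sum was *KRT5* and *KRT17* in every library. Among the 10 markers the keratin *KRT8* was called higher (log2 fold change 1.01 ± 0.17, SE; adjusted p 0.0450 from limma). The adhesion protein *CDH1* and the basal factor *TP63* were called lower by limma, at -5.28 ± 0.35 and -2.65 ± 0.42 (SE), with adjusted p-values of 0.00757 and 0.0396. Of the 10, 7 had an unadjusted p under 0.05 by limma, and the median log2 fold change of the 10 was -2.21. Both edited libraries lay below both wild-type libraries in 7 and above them in 1, against 30.2% and 31.4% of all genes. *KRT5*, the most abundant, measured 3514 and 3056 in edited and 4590 and 11910 in wild-type replicates 1 and 2 (-1.17 ± 0.49, SE). *KRT17* and *ITGB4*, the next most abundant, were at -2.37 ± 0.51 and -0.64 ± 0.75 (SE). Of 7 neural markers 2 had a row, and their sums were 276 and 248 in edited and 108 and 66.4 in wild-type cells, nearly all of it the tubulin *TUBB3*, which was called higher (1.62 ± 0.27, SE; adjusted p 0.0444 from limma). Of 7 fibroblast markers 2 had a row, with sums of 18.3 and 111 in edited and 23.0 and 29.2 in wild-type cells, and they differed in sign. *COL1A1* was called lower (-2.06 ± 0.37, SE; adjusted p 0.0490 from limma), and *DCN* measured 15.1 and 105 in edited and 7.42 and 1.09 in wild-type cells (3.30 ± 1.06, SE; adjusted p 0.119 from limma). Of 4 leukocyte markers only *CD68* had a row (0.05 ± 0.24, SE), and of 4 endothelial markers 0 did; markers without a row were not analysed here. In these bulk libraries a change in the share of a cell type and a change in RNA per cell cannot be told apart, and the part of such markers in the protocadherin values was not tested.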

How the data were processed

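RNA-seq was made from 2 edited and 2 wild-type libraries of MCF12A cells, grouped by their labels. The deposited table lists 16811 gene symbols and a value for each library. How the authors normalized this signal is not stated, and its low values behaved as reads divided by transcript length and a factor of the library. The submitters' processing notes name HISAT2, Salmon and hg38 without roles or versions, and the annotation is not given in the sources used here.

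The 4 values were in whole-number proportion in 3915 genes (23.3%, relative tolerance 1e-09), so whole reads could not be recovered for most genes and no count test was used. The value of 1 read was estimated from 790 genes with 1 annotated transcript of at least 300 bases. Of 452 low values, 61 fell within 0.02 of a whole read, where 18.1 would if spread evenly. Read numbers use the length of the canonical transcript in GENCODE.

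All genes were fitted with limma 3.58.1 in R 4.3.3 (lmFit, eBayes with trend) on log2(value + 1), with no filter, no replicate block and Benjamini-Hochberg adjustment. A fold change on this scale understates that of low genes. On simulated data for this comparison over 16811 genes, 180 of 200 genes with a true log2 change of 2 were found, with 9 others called. Of 200 with a true log2 change of 1, 0 were found, and without any true change 0 were called. The data themselves had 795 genes called. The adjusted p depends on how many genes differ, so the shares found in simulation may not hold for these data. Single values per library were compared by exact two-sided permutation (scipy 1.17.1). Values were given for every called gene, the 15 members with the highest means and all non-clustered members, which took in all 10; of a list, its called genes and its 3 highest by mean were named. The members and lists were chosen with earlier results of these data known. Positions and promoters came from RefSeq on GRCh38.p14, the build named in the notes (hg38). Alternatives in pseudocount, filter, scaling, block, variance model and threshold were computed, as were fits that leave out 1 library. A robust variance estimate and a crossed block were added after the data had been seen. Python 3.11.15, numpy 2.4.6, pandas 2.3.3 and matplotlib 3.10.9 were used.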

Additional observations from a re-analysis of the deposited data

How the results depend on the processing

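*PCDHB2* kept its direction under the settings in which it was fitted (a mean of at least 10 left it out), with log2 fold changes from 1.07 to 2.76 and adjusted p-values from limma of 0.0299 to 0.223. Deviations of same-numbered libraries had a correlation of -0.14 over 9590 genes. With 1 difference per group, this cannot show whether replicate numbers mark a shared batch. With a replicate block 0 protocadherin genes and 0 clustered genes were called, with 17 genes higher and 108 lower in all. With the pairs crossed, 159 were higher and 466 lower. The count was also 0 at an adjusted p under 0.001 (0 of all genes) and with a mean of at least 10, which leaves *PCDHGC3* and *PCDH1* and medians of -0.29 and -1.25 for the clustered and non-clustered genes. Leaving out 1 library gave counts of 0 to 0, both for all protocadherin and for the clustered genes, with 0 to 248 genes called in all. The 2 wild-type leave-outs called 0 of all genes and say nothing on stability. With pseudocounts of 0.1 and 5, the clustered median was 0.82 and 0.16, and its difference from the non-clustered median 1.66 and 0.77. Quantile normalization put the clustered median at 0.67, and leaving out 1 library at 0.34 to 0.70. The non-clustered median then ran from -1.12 to -0.40.

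The median of the 45 neighbours was 0.346 with equal library totals, 0.352 with quantile and 0.282 with cyclic loess normalization, and 0.385 to 0.590 with 1 library left out. Equal totals put the median of all genes at -0.089 in place of 0.011, and *PCDHB2* at 2.00. *PCDHGB6* turned to 0.0889 with quantile and 0.0693 with loess normalization. With 1 library left out, *PCDHGB6* ran from -0.34 to 0.11, *PCDHGB7* from -0.65 to 0.87, *PCDHGC3* from -0.76 to 0.19 and *PCDH24* from -0.76 to 0.22. The changes of sign came without edited replicate 1 (*PCDHGB6*, 0.11, and *PCDHGC3*, 0.19), without edited replicate 2 (*PCDHGB7*, -0.65), without wild-type replicate 1 (*PCDHGB6*, 0.030) and without wild-type replicate 2 (*PCDH24*, 0.22). None of these 4 genes was called in any setting in which it was fitted, and the cause was not tested. The lowest values rest on about 21 reads, which limits what the low genes can show.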
